A study of Mus musculus with 10 samples.

Results

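The genes described here are those of Wnt signalling in 2 mesenchymal mouse breast cancer cell lines. They were taken by symbol (each numbered Wnt, Fzd, Sfrp, Dkk and Rspo gene) and by name (Lrp5, Lrp6, Axin2, Lef1, Tcf7, Nkd1, Nkd2, Notum, Wif1 and Porcn). Of 52 annotated mouse genes that match, 43 have a row among the 18103 gene rows of the count table. These are 16 ligand genes, the ligand acyltransferase gene Porcn, 9 Frizzled receptor genes, 2 co-receptor genes, 3 R-spondin genes, 7 secreted antagonist genes, 3 feedback genes and 2 genes of nuclear factors. Dkk1, Dkk4, Fzd10, Fzd10os, Nkd1, Rspo4, Wnt1, Wnt2 and Wnt8a were not analysed here.

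RNA was sequenced from 10 libraries, 2 for each of 5 groups, all taken on day 7 and from 2 independent experiments. Py2T-LT cells, the long-term form of a line from a mammary tumour of a mouse with the polyoma middle T oncogene, were sampled with bone morphogenetic protein 2 (BMP2) plus a MEK inhibitor (BMP2+MEKi), with the MEK inhibitor alone (MEKi), and as controls. No Py2T-LT group had BMP2 without the inhibitor, so an effect of BMP2 alone and one that needs MEK inhibition cannot be told apart. MTΔECad cells, a mesenchymal line without its E-cadherin gene Cdh1, were sampled with rosiglitazone, a drug that activates PPARγ, and as controls. As usual doses the protocol gives 200 ng/ml for BMP2, 40 µM for PD98059, which blocks MEK, and 2 µM for rosiglitazone, with DMSO in the control medium. Its schedule has 3 days of BMP2 alone, 4 days of BMP2 plus rosiglitazone and 3 days of rosiglitazone alone. Taken in sequence these steps run past day 7, and the sample titles do not say which of them applied. The sample labels carry no dose and do not say whether the Py2T-LT medium held rosiglitazone or TGF-β. The titles of the MTΔECad samples with rosiglitazone name no BMP2, and whether these cells also received it is not given there. Each group is 1 established line, so differences between the lines cannot be told apart from other ways in which these lines differ.

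Library totals ran from 14659987 to 17249199 counts, and levels are given as CPM, counts divided by the scaled size of the library, so that 1 count was worth at most 0.0696 CPM and the floor of 3 counts in a library at most 0.209 CPM. Cdh1 stood at 2.41 ± 0.227 CPM in MTΔECad controls and 33.8 ± 3.04 CPM in Py2T-LT controls (SD, n = 2 each), lower in the line named for its loss. A summed set of 6 adipocyte marker genes lay at 306 to 337 CPM in BMP2+MEKi cells, 171 to 206 CPM in MEKi cells and 2.71 to 5.87 CPM in Py2T-LT controls, and at 1621 to 1813 CPM with rosiglitazone and 22.5 to 25.9 CPM in MTΔECad controls. Of 8 bone and cartilage markers, 7 had a row, and their sum lay at 102 to 103 CPM in BMP2+MEKi cells, 33.9 to 35.9 CPM in MEKi cells, 22.4 to 31.2 CPM in Py2T-LT controls, 35.0 to 38.1 CPM with rosiglitazone and 57.6 CPM in MTΔECad controls. The 7 mammary epithelial markers summed to 311 to 333 CPM in BMP2+MEKi cells, 588 to 672 CPM in MEKi cells and 637 to 688 CPM in Py2T-LT controls, and to 418 to 462 CPM with rosiglitazone and 283 to 293 CPM in MTΔECad controls, with Krt5 at 0 in every group but MEKi and Cldn4 at 0 with rosiglitazone. The 7 mesenchymal markers lay at 9437 to 10130 CPM in BMP2+MEKi cells, 8025 to 8397 CPM in MEKi cells and 7990 to 10836 CPM in Py2T-LT controls, and at 10237 to 10623 CPM with rosiglitazone and 13565 to 16198 CPM in MTΔECad controls. Markers of endothelial cells summed to at most 1.62 CPM in any library, of skeletal muscle (2 of 6 with a row) to at most 0.646 CPM, and of blood cells (3 of 6 with a row) to at most 16.4 CPM. The part of cells in different states in the results on the Wnt genes was not tested, and in bulk RNA fewer cells of a type and less RNA per cell cannot be told apart.

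Wnt proteins are lipid-modified ligands. Porcn attaches the lipid in the secretory pathway, and the secreted protein binds a Frizzled receptor together with the co-receptor Lrp5 or Lrp6, which stops the destruction of β-catenin and lets it act with TCF and LEF factors on target genes. Secreted Frizzled-related proteins and Wif1 bind the ligands, Dickkopf proteins such as Dkk2 bind the co-receptors, and Notum removes the lipid. R-spondins keep Frizzled receptors at the surface, and Axin2, Notum and the Naked cuticle genes are targets that feed back on the pathway. Some ligands, Wnt5a and Wnt11 among them, are best known for signalling that does not run through β-catenin. In fat, Wnt10b and Wnt10a are known as ligands that restrain the differentiation of preadipocytes, and Wnt4 is known in the mammary gland as a ligand that acts downstream of progesterone.

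The words rose and fell are kept for genes with an adjusted p under 0.05 in the quasi-likelihood test of edgeR, with the Benjamini-Hochberg method applied to all 13149 tested genes. Of the 43 genes, 30 were abundant enough to be tested. The p-values measure only the spread between the 2 libraries within a group, estimated jointly over the 5 groups. Fold changes are on the log2 scale with their standard error (SE).

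BMP2+MEKi moved most of these genes, and by larger steps than the MEK inhibitor alone. Against the Py2T-LT controls 14 of the 30 tested rose and 9 fell, where 38.5% of all genes tested were called, 19.1% as higher and 19.4% as lower. Of the 23, 15 changed by at least 1 on the log2 scale, where 13.1% of all genes did. The median log2 fold change of the 30 was 0.28, and that of all genes tested 0.00. BMP2+MEKi against MEKi, the comparison in which the groups differ by BMP2, had 17 of the 30 higher and 6 lower, where 37.3% of all genes were called, 17.9% as higher and 19.4% as lower. There 14 changed by at least 1, where 11.9% of all genes did, and the medians were 0.34 for the 30 and 0.01 for all genes.

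MEKi alone raised 5 of the 30 and lowered 7 against the Py2T-LT controls, where 16.5% of all genes were called, 8.98% as higher and 7.52% as lower. Of these 12, 4 changed by at least 1, where 3.86% of all genes did, and the medians were -0.07 for the 30 and 0.01 for all genes. Rosiglitazone in MTΔECad cells also raised 5 and lowered 7, where 13.2% of all genes were called, 7.95% as higher and 5.26% as lower, and 2 changed by at least 1, where 3.11% of all genes did. MTΔECad controls against Py2T-LT controls had 9 genes higher and 15 lower, where 61.0% of all genes were called, 29.3% as higher and 31.7% as lower, and 17 changed by at least 1, where 24.5% of all genes did. The medians were 0.01 for the 30 and -0.02 for all genes with rosiglitazone, and -0.49 and -0.03 between the lines. Comparisons against the Py2T-LT controls share those libraries, and both BMP2+MEKi comparisons share the BMP2+MEKi libraries.

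**Figure D1:**
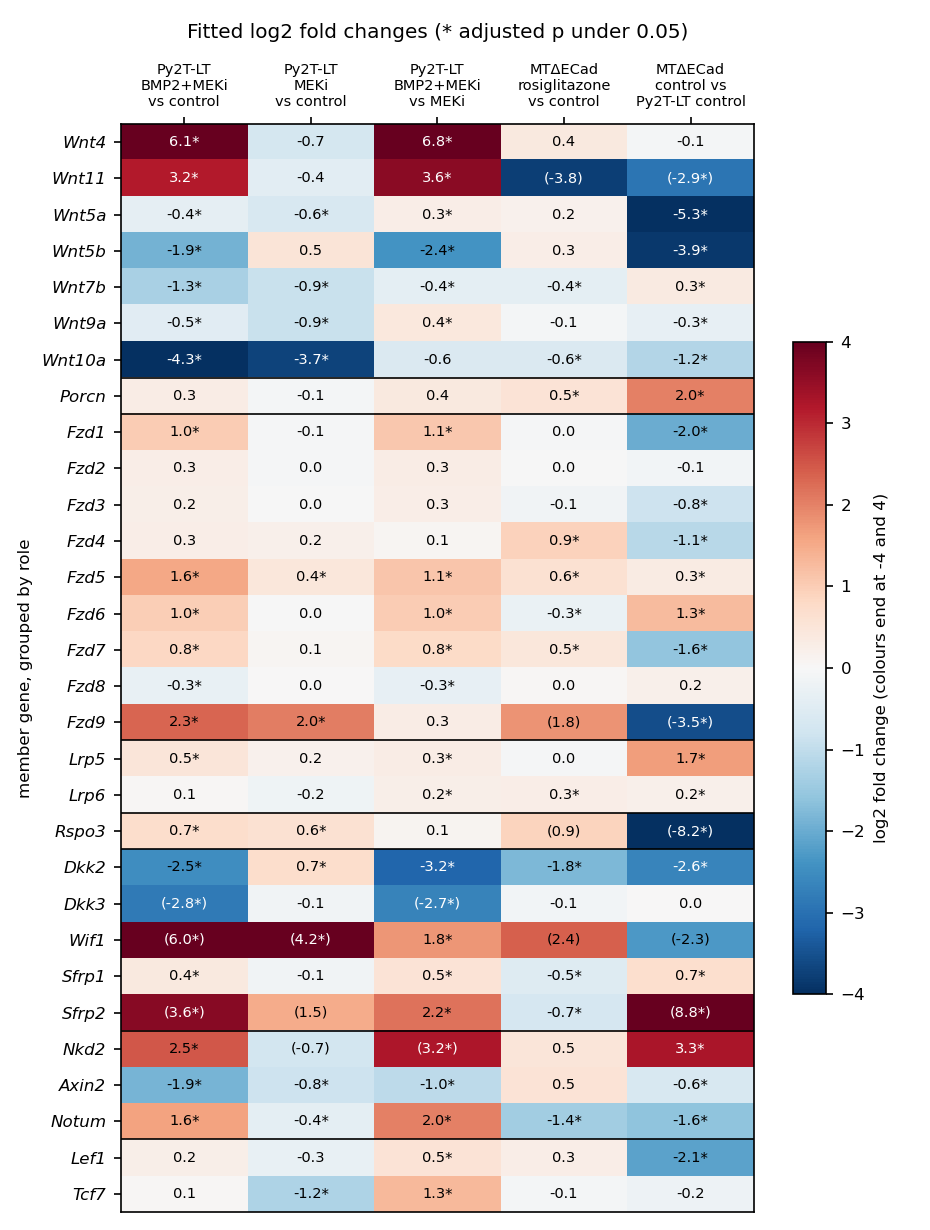
Fitted log2 fold changes of the 30 tested genes (rows, grouped by role from ligands at the top to nuclear factors at the bottom) in the 5 comparisons (columns). An asterisk marks an adjusted p under 0.05, and brackets mark values for which a group held 9 counts or fewer in all, so that the fitted size is poorly fixed; Wnt4 is red in both BMP2+MEKi columns against Py2T-LT groups (6.08 and 6.79) and Wnt10a is blue in both columns against the Py2T-LT controls.

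Wnt4 was the ligand that rose most with BMP2+MEKi. Its gene (NCBI Gene 22417, chromosome 4, 137277635 to 137299501, GRCm38) stood at 38.4 and 42.2 CPM in BMP2+MEKi cells, 0.452 and 0.274 CPM in MEKi cells, and 0.554 and 0.625 CPM in Py2T-LT controls. The BMP2+MEKi libraries lay far above all others, while the MEKi and control libraries lay close to each other. The log2 fold change was 6.79 ± 0.24 for BMP2+MEKi against MEKi and 6.08 ± 0.22 against the controls (edgeR adjusted p = 8.31e-15 and 7.74e-15). MEKi alone gave -0.71 ± 0.49 against the controls, which did not pass (edgeR adjusted p = 0.39). MTΔECad cells had 0.918 and 0.55 CPM with rosiglitazone and 0.696 and 0.438 CPM as controls. These libraries overlapped, and neither rosiglitazone (0.39 ± 0.44, edgeR adjusted p = 0.68) nor the line (-0.07 ± 0.45, edgeR adjusted p = 0.904) gave a call.

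Wnt10a moved the other way, and already with the MEK inhibitor. The gene (NCBI Gene 22409, chromosome 1, 74792019 to 74804176) stood at 1.67 and 2.44 CPM in BMP2+MEKi cells, 3.55 and 2.68 CPM in MEKi cells, and 39.2 and 41.3 CPM in Py2T-LT controls. Each of the 4 treated libraries was far below both controls, and the BMP2+MEKi libraries lay below the MEKi libraries without overlap. Against the controls its log2 fold change was -4.27 ± 0.17 with BMP2+MEKi and -3.70 ± 0.15 with MEKi (edgeR adjusted p = 2.48e-14 and 7.73e-13). Between BMP2+MEKi and MEKi the difference was -0.57 ± 0.23, which did not pass (edgeR adjusted p = 0.0533). It passed without BMP2+MEKi replicate 2, at -0.88 (edgeR adjusted p = 0.0246), without MEKi replicate 2, at -0.77 (edgeR adjusted p = 0.0291), and with library totals in place of scaled sizes (edgeR adjusted p = 0.0354).

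In MTΔECad cells Wnt10a had 12.1 and 11.6 CPM with rosiglitazone and 17.5 and 17.8 CPM in controls. The groups did not overlap, and the gene fell with rosiglitazone (-0.57 ± 0.14, edgeR adjusted p = 0.00599). The MTΔECad controls were lower than the Py2T-LT controls, by -1.19 ± 0.12 (edgeR adjusted p = 4.98e-08). Wnt10a thus fell in each comparison of treated with control cells, of which those in Py2T-LT cells share their controls. A long noncoding RNA gene, Gm32099, overlaps Wnt10a in the annotation and was not analysed here, and whether the counting used strand is not known.

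Wnt10b, the ligand best known for restraining fat cell differentiation, was not detectable as expressed at this depth. The gene (NCBI Gene 22410, chromosome 15, 98770712 to 98778206) had 1 and 0 counts in MEKi cells and 0 and 2 counts in Py2T-LT controls. The BMP2+MEKi libraries and all 4 MTΔECad libraries held 0 counts, which allows up to 0.209 CPM in a library for counting error alone. No fold change is given, since every group was under the floor.

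The promoters were taken as 250 bases before to 50 after a start that RefSeq annotates (for Axin2 and Dkk2 not the outermost base of the gene). Those shown are of the ligand that rose most with BMP2+MEKi (Wnt4), and of a feedback target (Axin2) and an antagonist (Dkk2) that both fell. They come from RefSeq for GRCm38.p6, 5′ to 3′ on the strand of the gene, with capitals for the sequence GGCGCC, which SMAD proteins of the BMP pathway are known to bind. No promoter sequence of Wnt10a is given here.
Wnt4 promoter, chr4:137277385-137277684, plus strand: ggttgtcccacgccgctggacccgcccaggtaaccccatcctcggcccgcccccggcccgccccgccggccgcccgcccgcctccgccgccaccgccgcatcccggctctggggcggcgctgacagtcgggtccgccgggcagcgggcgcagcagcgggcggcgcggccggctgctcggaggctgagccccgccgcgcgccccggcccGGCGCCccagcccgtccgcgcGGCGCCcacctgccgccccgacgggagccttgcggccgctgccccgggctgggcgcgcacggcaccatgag
Axin2 promoter, chr11:108920099-108920398, plus strand: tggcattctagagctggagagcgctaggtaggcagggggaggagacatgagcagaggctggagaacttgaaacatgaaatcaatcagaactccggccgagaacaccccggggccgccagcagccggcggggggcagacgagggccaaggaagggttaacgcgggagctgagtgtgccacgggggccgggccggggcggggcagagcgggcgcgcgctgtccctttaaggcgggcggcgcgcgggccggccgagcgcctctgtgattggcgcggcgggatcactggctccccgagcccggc
Dkk2 promoter, chr3:132085042-132085341, plus strand: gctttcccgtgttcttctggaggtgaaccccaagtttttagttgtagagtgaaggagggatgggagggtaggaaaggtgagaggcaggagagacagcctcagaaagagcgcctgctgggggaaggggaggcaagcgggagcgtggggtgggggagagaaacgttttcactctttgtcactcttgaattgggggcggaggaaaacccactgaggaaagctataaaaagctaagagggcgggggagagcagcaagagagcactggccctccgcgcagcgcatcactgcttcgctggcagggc
The Wnt4 window holds GGCGCC at 2 places, which begin 42 and 21 bases before that start, and is rich in G and C (84.3%, against 70.0% in Axin2 and 57.7% in Dkk2). The Axin2 and Dkk2 windows hold neither GGCGCC nor any of the TCF/LEF core sequences (CTTTGAA or CTTTGAT, and likewise CTTTGTA or CTTTGTT) on either strand. GGCGCC, which reads the same on both strands, was present in 11.9% of 32851 promoter windows of the same length, and the TCF/LEF cores in 16.9%. Of the 34 windows of the Wnt genes described here, which belong to 27 genes, 13 (38.2%) held GGCGCC and 5 (14.7%) a TCF/LEF core (Fzd7, Lef1, Wnt11, Wnt3 and Wnt5b), with no matching for base composition. The GGCGCC windows belong to 11 genes. With BMP2+MEKi against controls Wnt4, Wnt11 and Fzd9 of these rose, Wnt9a fell, and Fzd4, Lef1 and Tcf7 were not called. The rest, Rspo1, Wnt2b, Wnt3a and Wnt7a, were under the filter. The Wnt10b window, not shown, holds neither motif. These matches are descriptions of the letters in the windows.

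Wnt11 followed Wnt4 at a lower level. It stood at 6.03 and 8.66 CPM in BMP2+MEKi cells, 0.646 and 0.548 CPM in MEKi cells, and 1.05 and 0.562 CPM in Py2T-LT controls. Both BMP2+MEKi libraries were well above the rest, and the log2 fold change was 3.62 ± 0.36 against MEKi and 3.18 ± 0.34 against the controls (edgeR adjusted p = 8.93e-08 and 2.62e-07). MTΔECad cells held 0 and 0 counts with rosiglitazone and 3 and 0 in controls, all at or under the floor. The line difference rests on 3 counts in MTΔECad controls and 26 in Py2T-LT controls, a ratio of 0.123 (95% counting interval 0.0237 to 0.400). Its fitted log2 fold change ran from -6.70 without MTΔECad control replicate 1 to -1.91 without replicate 2, where the call was lost (edgeR adjusted p = 0.0581).

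**Figure D2:**
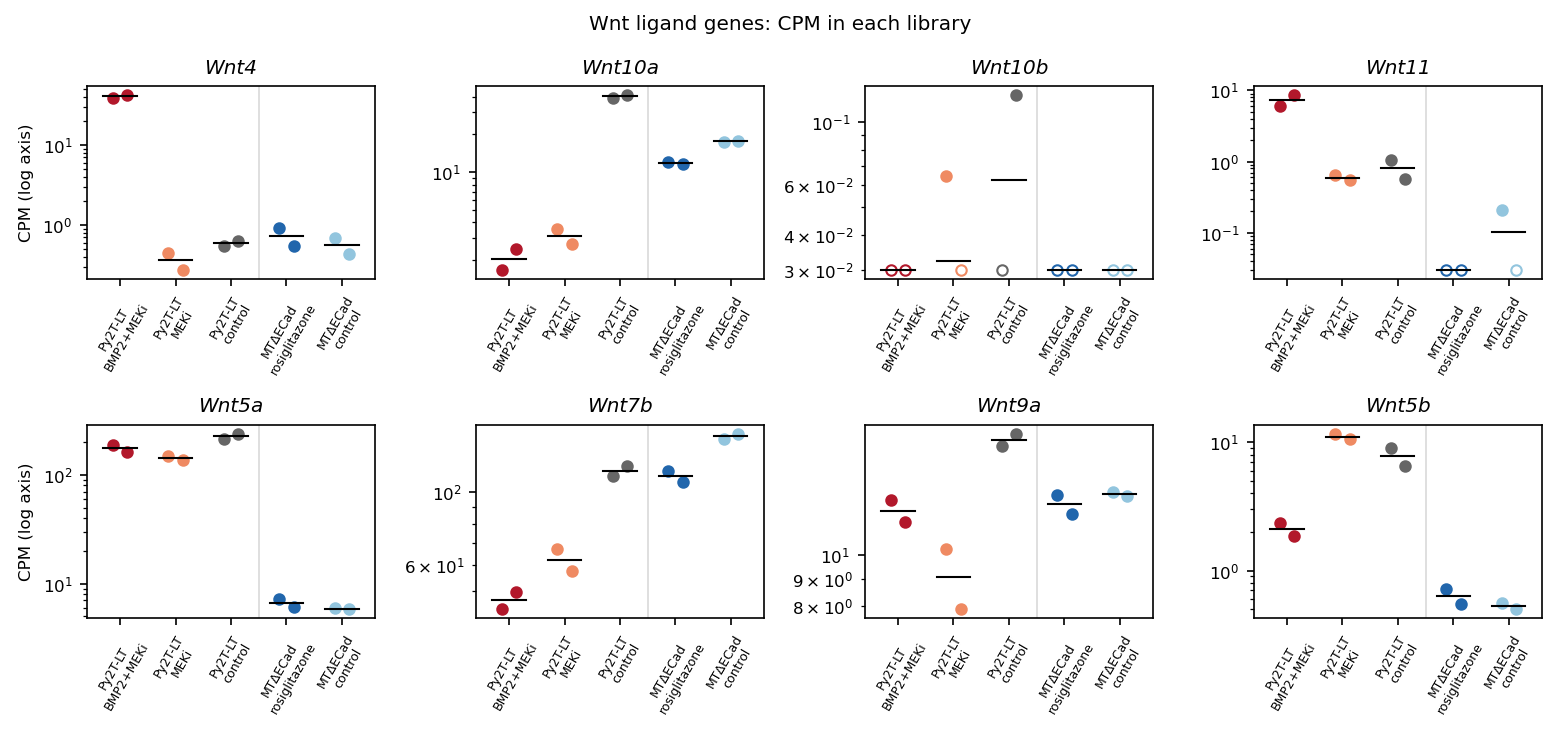
Level of 8 Wnt ligand genes in each library (CPM, log axis, axis range set for each gene), with the 5 groups on the horizontal axis, a filled point for each library, an open point at the bottom for a library with 0 counts and a bar for the mean of 2. Wnt4 and Wnt11 stand out in the BMP2+MEKi libraries, Wnt10a is lowest in both treated Py2T-LT groups, and Wnt5a and Wnt5b are lower in all MTΔECad libraries than in any Py2T-LT library.

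Among the Py2T-LT groups Wnt5b, a close relative of Wnt5a, was lowest in BMP2+MEKi cells. It stood at 2.34 and 1.86 CPM in BMP2+MEKi cells, 11.6 and 10.5 CPM in MEKi cells, and 9 and 6.5 CPM in Py2T-LT controls. The groups did not overlap, with MEKi cells on top. Its log2 fold change for BMP2+MEKi was -2.40 ± 0.22 against MEKi and -1.89 ± 0.23 against the controls (edgeR adjusted p = 1.46e-08 and 7.9e-07). MEKi against controls gave 0.51 ± 0.18, which did not pass (edgeR adjusted p = 0.0578) but did without Py2T-LT control replicate 1, at 0.77 (edgeR adjusted p = 0.0169). Wnt5b overlaps the gene Fbxl14, which had 9096 counts over all libraries where Wnt5b had 724, so part of its reads may be shared.

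Wnt7b, Wnt5a and Wnt9a, the remaining tested ligands, were lower in the treated Py2T-LT groups than in controls. Wnt7b, a ligand expressed in mammary epithelium, stood at 44.2 and 49.8 CPM in BMP2+MEKi cells, 67.1 and 57.4 CPM in MEKi cells, and 111 and 120 CPM in Py2T-LT controls. The 3 groups did not overlap, and Wnt7b changed by -1.30 ± 0.09 with BMP2+MEKi and -0.90 ± 0.09 with MEKi against the controls, and by -0.40 ± 0.09 in BMP2+MEKi cells against MEKi (edgeR adjusted p = 2.55e-10, 3.09e-07 and 0.00159). Among the Py2T-LT groups the summed mammary epithelial markers were lowest in BMP2+MEKi cells, at 311 to 333 CPM against 637 to 688 CPM in controls. In MEKi cells they overlapped the controls, at 588 to 672 CPM. In MTΔECad cells they were higher with rosiglitazone (418 to 462 CPM) than in controls (283 to 293 CPM), where Wnt7b was lower with rosiglitazone. Their part in the Wnt7b result was not tested. Wnt5a had 187 and 162 CPM in BMP2+MEKi cells, 150 and 138 CPM in MEKi cells, and 212 and 239 CPM in Py2T-LT controls. Against controls it changed by -0.37 ± 0.09 with BMP2+MEKi and -0.65 ± 0.09 with MEKi (edgeR adjusted p = 0.00187 and 1.43e-05), and was higher in BMP2+MEKi cells than in MEKi cells by 0.28 ± 0.09 (edgeR adjusted p = 0.0144). Wnt9a had 12.7 and 11.6 CPM in BMP2+MEKi cells, 10.3 and 7.89 CPM in MEKi cells, and 16.1 and 17.1 CPM in Py2T-LT controls, and changed against controls by -0.45 ± 0.14 with BMP2+MEKi and -0.88 ± 0.14 with MEKi (edgeR adjusted p = 0.0127 and 1.29e-04).

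Several of these smaller calls depended on 1 library. For BMP2+MEKi against controls, Wnt5a lost its call without BMP2+MEKi replicate 2 (edgeR adjusted p = 0.0536), and Wnt9a without that library (0.0994) or without control replicate 2 (0.0697). Against MEKi, the rise of Wnt5a was lost without BMP2+MEKi replicate 1 (edgeR adjusted p = 0.246) or MEKi replicate 2 (0.136). The rise of Wnt9a against MEKi, 0.42 ± 0.15 (edgeR adjusted p = 0.0265), was lost without the same libraries (0.16 and 0.318).

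In MTΔECad cells Wnt7b had 116 and 107 CPM with rosiglitazone and 144 and 149 CPM in controls, with a log2 fold change of -0.40 ± 0.09 (edgeR adjusted p = 0.00262). Wnt10a and Wnt7b were the ligands called with rosiglitazone among the 7 tested, where 13.2% of all genes tested were called. The line difference was largest for Wnt5a, which had 5.92 and 5.82 CPM in MTΔECad controls and 212 and 239 CPM in Py2T-LT controls, lower by -5.26 ± 0.12 (edgeR adjusted p = 7.1e-19). Wnt5b was also lower in MTΔECad controls, at 0.557 and 0.501 CPM against 9 and 6.5 CPM in Py2T-LT controls (-3.86 ± 0.30, edgeR adjusted p = 4.64e-10). Wnt7b was slightly higher there (0.34 ± 0.09, edgeR adjusted p = 0.00181). Wnt9a was slightly lower (-0.34 ± 0.14, edgeR adjusted p = 0.0366), a call that was lost without any 1 of the 4 libraries compared (edgeR adjusted p of 0.0583 to 0.141).

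Scaled by exon length (CPM per kb), which allows ligands to be compared with each other, the mix of ligand RNA differed between groups. Wnt4 made up 19.7% ± 1.4998 of the summed ligand level in BMP2+MEKi cells, 0.216% ± 0.0561 in MEKi cells and 0.182% ± 0.00664 in Py2T-LT controls (SD, n = 2 each). Wnt10a made up 1.71% ± 0.470 in BMP2+MEKi cells, 3.18% ± 0.337 in MEKi cells and 21.2% ± 0.229 in Py2T-LT controls. Wnt5a was the ligand with the highest level per length in each Py2T-LT group, with 45.9%, 46.6% and 37.4% of the sum in BMP2+MEKi cells, MEKi cells and controls. In MTΔECad cells that place was held by Wnt7b, with 69.8% after rosiglitazone and 70.9% in controls, and Wnt5a made up 2.61% and 1.78%. The sum itself was 49.1 and 48.3 CPM per kb in BMP2+MEKi cells, 42.1 and 37.0 in MEKi cells, and 74.4 and 79.6 in Py2T-LT controls, and 33.9 and 31.2 with rosiglitazone and 41.7 and 42.8 in MTΔECad controls. Every treated library was below both of its line's controls in this sum.

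**Figure D3:**
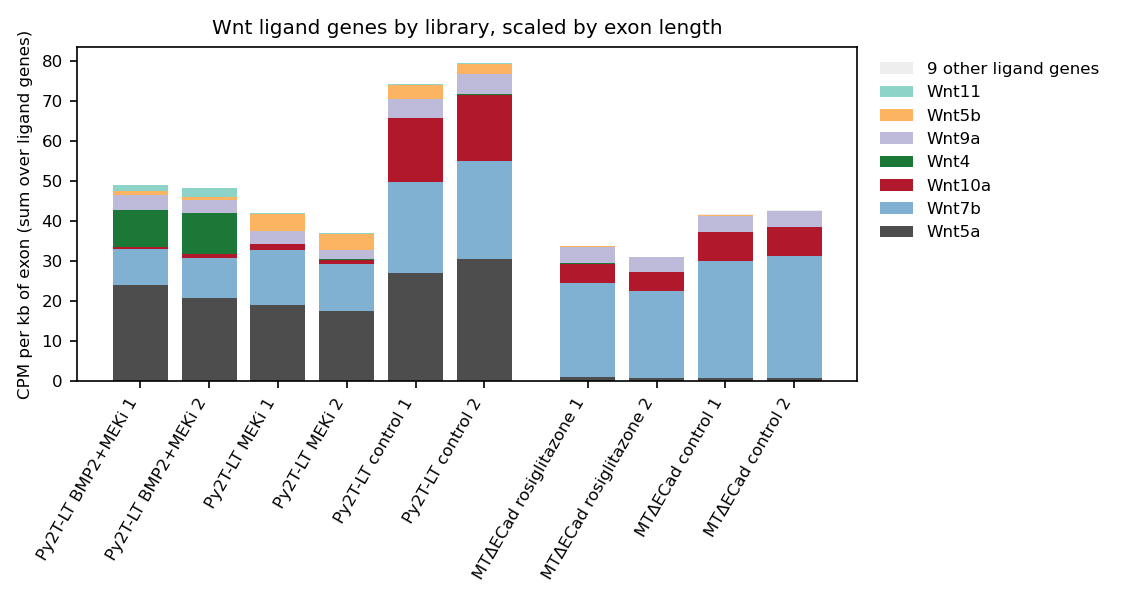
Summed level of the 16 ligand genes in each library, in CPM per kb of exon, divided by gene (colours, 9 ligand genes under the filter together in light grey); libraries of treated cells stand left of their controls. The Wnt4 block is visible in the BMP2+MEKi libraries, at 19.7% of the sum, the Wnt10a block is largest in Py2T-LT controls, at 21.2%, and Wnt7b makes up about 70.9% of the MTΔECad controls.

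The other 9 ligand genes were at or near 0 in every library, with 1 to 10 counts over all 10 libraries and at most 3 in 1 library. Besides Wnt10b these were Wnt16, Wnt2b, Wnt3, Wnt3a, Wnt6, Wnt7a, Wnt8b and Wnt9b. Wnt6 and Wnt10a are neighbours on chromosome 1, with 6696 bases and no coding gene between them, yet Wnt6 had 0 to 3 counts per library and Wnt10a 25 to 661. Wnt3a and Wnt9a lie 16097 bases apart on chromosome 11, with 0 to 1 counts per library for Wnt3a and 144 to 273 for Wnt9a.

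Porcn, which acylates Wnt ligands in the secretory pathway, differed most between the lines. It stood at 52.9 and 50.1 CPM with rosiglitazone and 37.6 and 33.7 CPM in MTΔECad controls, without overlap, and rose with rosiglitazone by 0.53 ± 0.12 (edgeR adjusted p = 0.00377). Without MTΔECad control replicate 2 that call was lost (edgeR adjusted p = 0.0714). In Py2T-LT cells it had 8.91 and 12.4 CPM with BMP2+MEKi, 8.92 and 7.61 CPM with MEKi, and 8.5 and 9 CPM in controls, groups that gave no call. Without BMP2+MEKi replicate 1 Porcn passed against controls (edgeR adjusted p = 0.0251) and against MEKi (0.00928). The level was higher in MTΔECad controls than in Py2T-LT controls by 2.03 ± 0.14 (edgeR adjusted p = 6.27e-11).

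Of the 9 Frizzled receptor genes, each of which was tested, 5 rose and 1 fell with BMP2+MEKi against controls, where 19.1% of all genes tested were called higher and 19.4% lower. Fzd1 stood at 207 and 241 CPM in BMP2+MEKi cells, 109 and 105 CPM in MEKi cells, and 105 and 118 CPM in Py2T-LT controls. Fzd6 had 184 and 183 CPM in BMP2+MEKi cells, 86.3 and 94.8 CPM in MEKi cells, and 90.4 and 93.9 CPM in controls. For both genes the BMP2+MEKi libraries lay far above the overlapping MEKi and control libraries. Fzd1 rose by 1.07 ± 0.08 against MEKi and 1.009 ± 0.08 against controls, and Fzd6 by 1.02 ± 0.07 and 0.99 ± 0.07 (edgeR adjusted p = 3.51e-09 or less). Fzd6 is known for planar polarity and Fzd1 for β-catenin signalling.

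Fzd7 and Fzd5, 2 other receptors of β-catenin signalling, rose as well. Fzd7 had 80.8 and 76.9 CPM in BMP2+MEKi cells, 48.2 and 45.1 CPM in MEKi cells, and 40.6 and 48.1 CPM in controls, with rises of 0.76 ± 0.09 against MEKi and 0.83 ± 0.09 against controls (edgeR adjusted p = 1.22e-06 and 3.51e-07). Fzd5 was set apart by a rise in both steps. It stood at 57.2 and 60.1 CPM in BMP2+MEKi cells, 27.7 and 26.3 CPM in MEKi cells, and 19.2 and 20.6 CPM in controls, 3 groups without overlap. The rise was 0.44 ± 0.10 with MEKi alone and 1.56 ± 0.10 with BMP2+MEKi against controls, and 1.12 ± 0.10 for BMP2+MEKi against MEKi (edgeR adjusted p = 0.00411, 5.51e-11 and 6.57e-09).

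Fzd9, at a low level, had 2.01 and 2.67 CPM in BMP2+MEKi cells, 2.26 and 1.64 CPM in MEKi cells, and 0.493 and 0.437 CPM in controls. It rose by 2.32 ± 0.41 with BMP2+MEKi and by 2.04 ± 0.43 with MEKi (edgeR adjusted p = 1.12e-04 and 0.00164), and the treated groups overlapped each other. Fzd8 fell with BMP2+MEKi (-0.31 ± 0.09 against controls and -0.34 ± 0.09 against MEKi, edgeR adjusted p = 0.00926 and 0.00471), the first of which was lost without control replicate 1 (0.095). Fzd2, Fzd3 and Fzd4 gave no call in these 3 comparisons. With 1 library left out, Fzd2 passed against controls without BMP2+MEKi replicate 1 (edgeR adjusted p = 0.0484) and against MEKi without that library (0.0292) or MEKi replicate 1 (0.015), and Fzd3 passed against controls without control replicate 2 (0.0185).

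**Figure D4:**
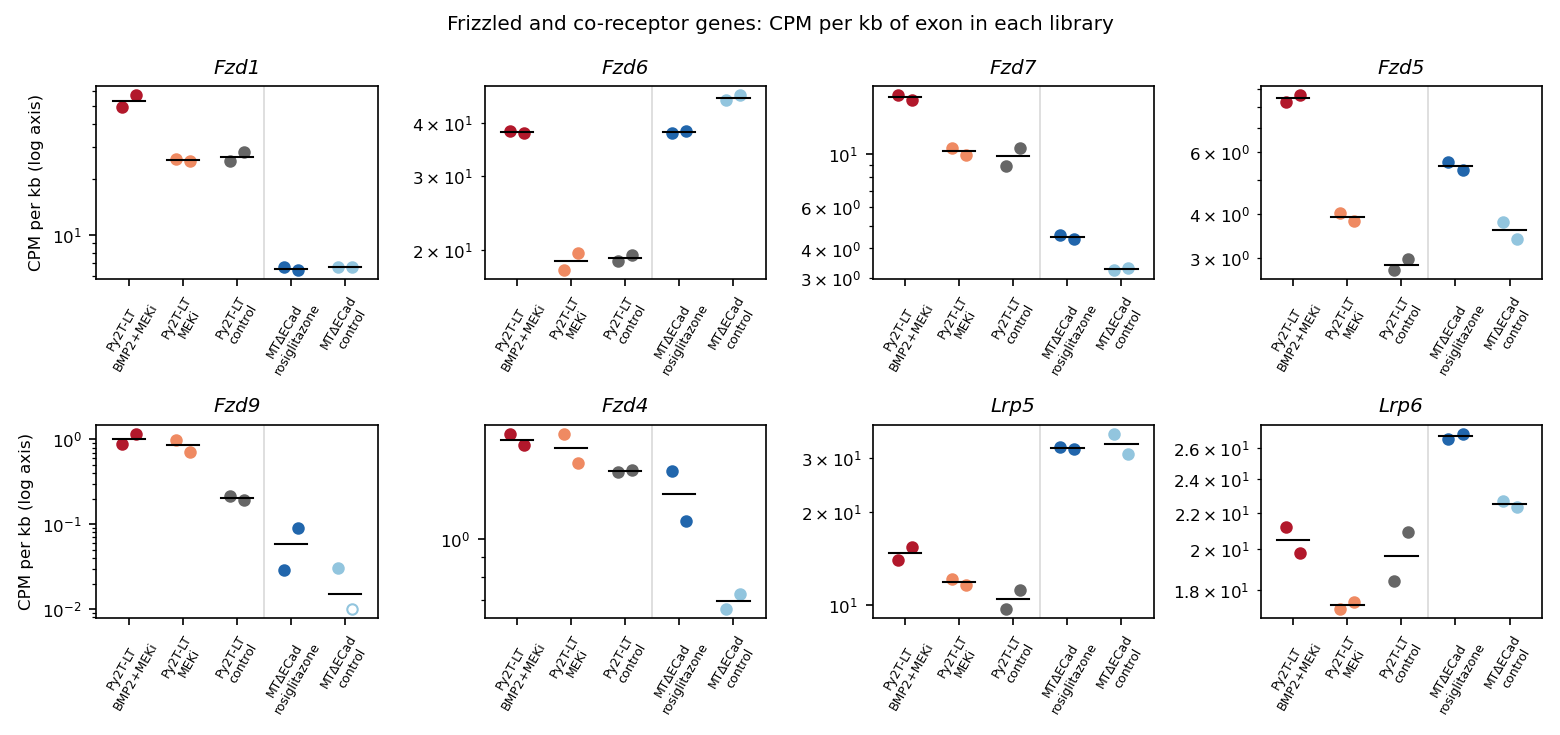
Level of 6 Frizzled receptor genes and the co-receptor genes Lrp5 and Lrp6 in each library (CPM per kb of exon, log axis, axis range set for each gene); points are libraries, an open point a library with 0 counts, and bars the mean of 2. Fzd1, Fzd6, Fzd7 and Fzd5 are higher in both BMP2+MEKi libraries than in the other Py2T-LT libraries, and Fzd6 and Lrp5 are higher in MTΔECad controls than in Py2T-LT controls.

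With rosiglitazone 3 of the 9 Frizzled genes rose and 1 fell, where 7.95% of all genes tested were called higher and 5.26% lower. Fzd5 rose here too, with 38.8 and 36.9 CPM in rosiglitazone-treated cells and 26.2 and 23.5 CPM in MTΔECad controls (0.61 ± 0.10, edgeR adjusted p = 1.68e-04), and the groups did not overlap. Fzd4 had 10 and 7.5 CPM with rosiglitazone and 4.45 and 4.88 CPM in controls (0.91 ± 0.18, edgeR adjusted p = 0.00123), and its call was lost without rosiglitazone replicate 1, at 0.68 (0.0502). Fzd4 overlaps the gene Tmem135, which had 7043 counts over all libraries where Fzd4 had 1501. Fzd7 rose (0.45 ± 0.11) and Fzd6 fell (-0.27 ± 0.07), with edgeR adjusted p = 0.0091 and 0.0144. Fzd7 lost its call without rosiglitazone replicate 1 or either control (edgeR adjusted p of 0.0567 to 0.0726), and Fzd6 without any 1 of the 4 libraries (0.0565 to 0.121). Fzd5 was the Frizzled gene that rose with MEKi, with BMP2+MEKi and with rosiglitazone.

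The lines differed in which Frizzled RNA was most abundant per length. Fzd6 made up 57.8% ± 1.72 of the summed Frizzled level in MTΔECad controls and 23.8% ± 0.464 in Py2T-LT controls, and Fzd1 8.41% ± 0.0771 and 33.0% ± 1.22 (CPM per kb, SD, n = 2 each). Fzd6 was higher in MTΔECad controls, at 218 and 225 CPM against 90.4 and 93.9 CPM in Py2T-LT controls (1.27 ± 0.07, edgeR adjusted p = 4.95e-12). Fzd1 was lower, at 28.1 and 28.2 CPM against 105 and 118 CPM (-1.98 ± 0.09, edgeR adjusted p = 1.1e-13). Fzd7 (-1.58 ± 0.11), Fzd4 (-1.10 ± 0.18) and Fzd3 (-0.82 ± 0.11) were lower too (edgeR adjusted p = 1.74e-05 or less). Fzd9 had 1 count in MTΔECad controls and 15 in Py2T-LT controls, a ratio of 0.0708 (95% counting interval 0.00168 to 0.460), and lost its call without MTΔECad control replicate 2 (edgeR adjusted p = 0.0629). Its fitted value ran from -5.92 to -2.61 without 1 or the other MTΔECad control. Fzd5 was slightly higher (0.32 ± 0.10, edgeR adjusted p = 0.0111), a call lost without MTΔECad control replicate 1 (0.121) or Py2T-LT control replicate 1 (0.0805), while Fzd8 passed only without Py2T-LT control replicate 1 among the libraries left out (0.0457). The summed Frizzled level overlapped between the controls, at 80.2 and 79.3 CPM per kb in MTΔECad cells and 77.7 and 82.9 in Py2T-LT cells, and stood at 137 and 147 CPM per kb in BMP2+MEKi cells.

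The co-receptor genes changed little with treatment. Lrp5 had 136 and 150 CPM in BMP2+MEKi cells, 118 and 113 CPM in MEKi cells, and 94.4 and 109 CPM in Py2T-LT controls, and rose by 0.49 ± 0.09 against controls and 0.31 ± 0.09 against MEKi (edgeR adjusted p = 1.19e-04 and 0.00881). The second call was lost without BMP2+MEKi replicate 2 (0.102) or MEKi replicate 2 (0.0707). Lrp6 rose by 0.25 ± 0.08 in BMP2+MEKi cells against MEKi and by 0.25 ± 0.07 with rosiglitazone (edgeR adjusted p = 0.013 and 0.0266). Against MEKi the Lrp6 call was lost without BMP2+MEKi replicate 1 (0.13) or MEKi replicate 1 (0.0772), and with rosiglitazone it was lost without any 1 of the 4 libraries (edgeR adjusted p of 0.0882 to 0.152). MEKi against controls gave -0.19 ± 0.08 for Lrp6, which passed without control replicate 1 alone (edgeR adjusted p = 0.106 with it and 0.0324 without it). Between the lines Lrp5 differed far more, at 349 and 299 CPM in MTΔECad controls and 94.4 and 109 CPM in Py2T-LT controls (1.67 ± 0.09, edgeR adjusted p = 8.58e-13). Lrp6 was higher there by 0.20 ± 0.08 (edgeR adjusted p = 0.03), a call lost without Py2T-LT control replicate 1 (0.322) or either MTΔECad control (0.0789 and 0.113).

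The R-spondin gene Rspo3, whose protein strengthens Wnt signals through LGR receptors, was expressed in Py2T-LT cells and near 0 in MTΔECad cells. It had 19.7 and 18.9 CPM in BMP2+MEKi cells, 16.4 and 19.5 CPM in MEKi cells, and 12.3 and 11.4 CPM in Py2T-LT controls. Both treated groups were above the controls and overlapped each other, with rises of 0.70 ± 0.14 and 0.60 ± 0.14 (edgeR adjusted p = 3.92e-04 and 0.00427). The MEKi call was lost without MEKi replicate 2 (0.0964). MTΔECad cells held 2 counts with rosiglitazone and 1 count as controls, where Py2T-LT controls held 382, a ratio between the controls of 0.00278 (95% counting interval 7.02e-05 to 0.0156). The fitted log2 fold change between the lines was -8.18, and ran from -10.57 to -7.26 without 1 or the other MTΔECad control. Rspo1, under the filter, had 14 counts in BMP2+MEKi cells, 2 in MEKi cells and 0 in Py2T-LT controls, at least 2.34-fold higher than in controls against the floor of 3 counts per library. With no count filter Rspo1 passed the test in that comparison (edgeR adjusted p = 0.0117). Rspo2 had 6 counts in all.

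Among the 5 tested secreted antagonists, the 3 genes of ligand-binding proteins rose and the 2 Dickkopf genes fell with BMP2+MEKi, against MEKi and against controls alike. Of all genes tested 17.9% rose and 19.4% fell against MEKi, and 19.1% rose and 19.4% fell against controls. Sfrp1 had 92.5 and 89.2 CPM in BMP2+MEKi cells, 66 and 59.2 CPM in MEKi cells, and 71.1 and 66.5 CPM in Py2T-LT controls, and rose by 0.54 ± 0.09 against MEKi and 0.40 ± 0.09 against controls (edgeR adjusted p = 4.02e-05 and 8.48e-04). Sfrp2 had 2.14 and 1.92 CPM in BMP2+MEKi cells, 0.323 and 0.548 CPM in MEKi cells, and 0.185 and 0.125 CPM in controls. Its BMP2+MEKi libraries lay above all other Py2T-LT libraries, with a rise of 2.17 ± 0.31 against MEKi (edgeR adjusted p = 7.15e-06). The controls held 5 counts and the BMP2+MEKi cells 65, a ratio of 13.04 (95% counting interval 5.31 to 41.5).

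Wif1, the Wnt inhibitory factor, had 2.34 and 2.5 CPM in BMP2+MEKi cells, 0.84 and 0.603 CPM in MEKi cells, and 0.0616 and 0 CPM in controls. The controls held 1 count, so the ratios were 78.2 for BMP2+MEKi (95% counting interval 13.6 to 3130) and 22.9 for MEKi (3.74 to 943). Both comparisons passed the test (edgeR adjusted p = 7.67e-07 and 0.00264), with fitted log2 values of 5.13 to 8.26 and 3.37 to 6.51 without 1 or the other control. BMP2+MEKi was above MEKi without overlap, by 1.75 ± 0.38 (edgeR adjusted p = 0.001), although DESeq2 gave an adjusted p of 0.0504.

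Dkk2, which can block or help Lrp6 depending on the cell, had 4.35 and 2.62 CPM in BMP2+MEKi cells, 31.5 and 30.9 CPM in MEKi cells, and 21.4 and 17 CPM in Py2T-LT controls. The 3 groups did not overlap, with MEKi on top and BMP2+MEKi far below. Its log2 fold change for BMP2+MEKi was -3.18 ± 0.21 against MEKi and -2.48 ± 0.22 against controls (edgeR adjusted p = 1.51e-09 and 5.99e-08). MEKi raised it by 0.70 ± 0.17 (edgeR adjusted p = 0.00772), which was lost without MEKi replicate 1 (0.0602), MEKi replicate 2 (0.0543) or control replicate 2 (0.0712). Dkk3, a divergent member of the family, held 6 counts in BMP2+MEKi cells, 42 in MEKi cells and 44 in controls. The ratio of BMP2+MEKi to MEKi was 0.14997 (95% counting interval 0.0521 to 0.355) and to controls 0.137 (0.0476 to 0.322), and both passed (edgeR adjusted p = 3.71e-04 and 1.79e-04).

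With rosiglitazone 3 of the 5 tested antagonist genes fell, where 5.26% of all genes tested were called lower. Sfrp2 had 47.4 and 46.5 CPM with rosiglitazone and 76 and 73.9 CPM in controls, with a log2 fold change of -0.68 ± 0.10. Sfrp1 had 78.8 and 72.6 CPM with rosiglitazone and 116 and 102 CPM in controls, with a log2 fold change of -0.53 ± 0.09 (edgeR adjusted p = 3.51e-05 for Sfrp2 and 1.59e-04 for Sfrp1). Dkk2 had 0.525 and 1.24 CPM with rosiglitazone and 3.69 and 2.5 CPM in controls, with a log2 fold change of -1.81 ± 0.38 (edgeR adjusted p = 0.00311). For each of these genes the groups did not overlap. The Dkk2 value ran from -2.53 without rosiglitazone replicate 2 to -1.31 without rosiglitazone replicate 1. Wif1 and Dkk3 gave no call with rosiglitazone, with 1 count of Wif1 in treated cells and 0 in controls. Sfrp4, with 21 counts in all, and Sfrp5, with 1, were under the filter.

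Among the genes higher in MTΔECad controls, Sfrp2 had the largest fitted fold between the lines. It held 2272 counts in MTΔECad controls and 5 in Py2T-LT controls, a ratio of 483 (95% counting interval 207 to 1488). Sfrp1 was higher in MTΔECad controls by 0.66 ± 0.09 and Dkk2 lower by -2.64 ± 0.23 (edgeR adjusted p = 1.17e-06 and 1.59e-08). Per length, Sfrp2 and Sfrp1 were the most abundant antagonist RNAs in MTΔECad controls (34.8 and 24.9 CPM per kb), and Sfrp1 in Py2T-LT controls (15.7 CPM per kb).

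The feedback genes, which are commonly read as targets of β-catenin, did not move together. Axin2, a scaffold of the complex that destroys β-catenin and a widely used target, had 2.34 and 2.5 CPM in BMP2+MEKi cells, 4.39 and 5.53 CPM in MEKi cells, and 8.19 and 9.37 CPM in Py2T-LT controls. The 3 groups did not overlap and lay apart, with BMP2+MEKi lowest, MEKi next and the controls highest. Its log2 fold change was -1.85 ± 0.20 with BMP2+MEKi and -0.81 ± 0.18 with MEKi against controls, and -1.04 ± 0.22 for BMP2+MEKi against MEKi (edgeR adjusted p = 1.98e-07, 0.00248 and 6.23e-04).

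Notum, a lipase that removes the acyl group from Wnt ligands, went the other way with BMP2+MEKi. It had 148 and 169 CPM in BMP2+MEKi cells, 41 and 37.9 CPM in MEKi cells, and 54.8 and 48.5 CPM in controls. The BMP2+MEKi libraries were the highest, and Notum rose by 2.01 ± 0.11 against MEKi and 1.62 ± 0.11 against controls (edgeR adjusted p = 9.16e-12 and 1.55e-10). It fell with MEKi alone (-0.39 ± 0.11, edgeR adjusted p = 0.0194), a call lost without MEKi replicate 2 (0.165) or control replicate 1 (0.132). Nkd2, a binding partner of Dishevelled, had 2.34 and 2.27 CPM in BMP2+MEKi cells, 0.258 and 0.219 CPM in MEKi cells, and 0.493 and 0.312 CPM in controls. Both BMP2+MEKi libraries were above the other Py2T-LT libraries, with a rise of 2.49 ± 0.37 against controls (edgeR adjusted p = 1.43e-05). Against MEKi, which held 8 counts where BMP2+MEKi held 74, the ratio was 9.71 (95% counting interval 4.68 to 23.3).

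**Figure D5:**
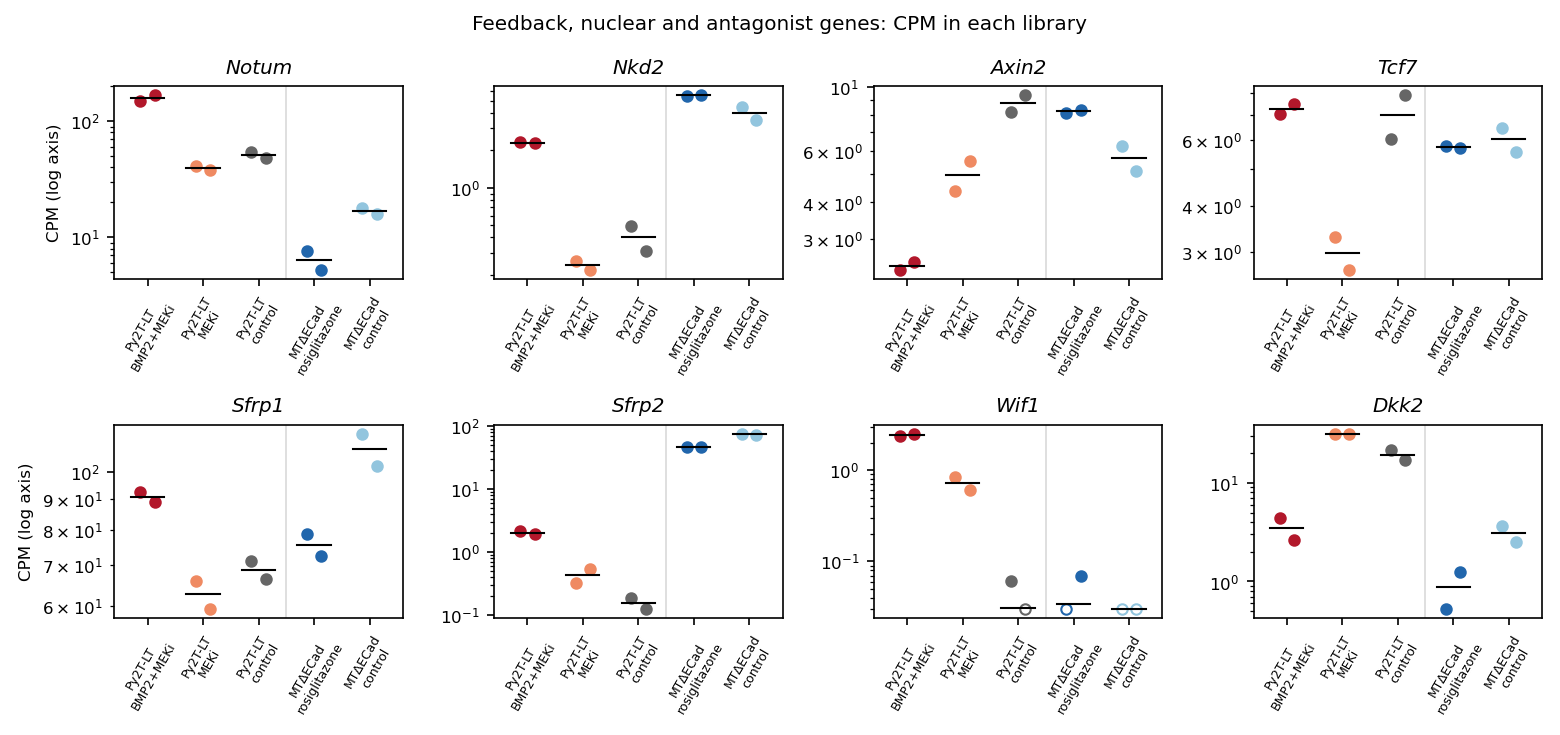
Level of feedback genes, Tcf7 and 4 secreted antagonist genes in each library (CPM, log axis, axis range set for each gene); points are libraries, open points at the bottom libraries with 0 counts, and bars the mean of 2. In the BMP2+MEKi libraries Notum, Nkd2, Sfrp1, Sfrp2 and Wif1 are the highest of the Py2T-LT groups while Axin2 and Dkk2 are the lowest.

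With rosiglitazone Notum had 7.61 and 5.23 CPM, and 17.7 and 15.8 CPM in MTΔECad controls, with a log2 fold change of -1.38 ± 0.15 (edgeR adjusted p = 1.29e-06). Axin2 had 8.13 and 8.32 CPM with rosiglitazone and 6.26 and 5.13 CPM in controls. The Axin2 groups did not overlap, but the difference of 0.53 ± 0.18 did not pass (edgeR adjusted p = 0.0569). Nkd2 had 5.44 and 5.57 CPM with rosiglitazone and 4.45 and 3.51 CPM in controls, a difference of 0.47 ± 0.22 that did not pass (edgeR adjusted p = 0.187). Between the lines Nkd2 was higher in MTΔECad controls than in Py2T-LT controls by 3.27 ± 0.34 (edgeR adjusted p = 4.67e-08), and Notum lower by -1.62 ± 0.12 (edgeR adjusted p = 3.66e-10). Axin2 was lower by -0.63 ± 0.18 (edgeR adjusted p = 0.00458), a call lost without MTΔECad control replicate 2 (0.0729).

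The nuclear factor gene Tcf7 was lowest in MEKi cells. It had 7.03 and 7.5 CPM in BMP2+MEKi cells, 3.3 and 2.68 CPM in MEKi cells, and 6.04 and 7.94 CPM in Py2T-LT controls. BMP2+MEKi and control libraries overlapped, and both lay above MEKi, with log2 fold changes of -1.23 ± 0.20 for MEKi against controls and 1.29 ± 0.20 for BMP2+MEKi against MEKi (edgeR adjusted p = 1.67e-04 and 2.84e-05). The difference of BMP2+MEKi from controls was 0.06 ± 0.18 (edgeR adjusted p = 0.827). Tcf7 overlaps Skp1, which had 81251 counts over all libraries where Tcf7 had 912, so shared reads could weigh on it. Lef1 had 7.57 and 7.56 CPM in BMP2+MEKi cells, 5.3 and 5.04 CPM in MEKi cells, and 5.18 and 7.62 CPM in controls. Its rise against MEKi, 0.55 ± 0.20 (edgeR adjusted p = 0.0386), was lost without any 1 of the 4 libraries (0.0973 to 0.154). Rosiglitazone gave no call for either gene. Lef1 was lower in MTΔECad controls, at 1.11 and 1.75 CPM against 5.18 and 7.62 CPM in Py2T-LT controls (-2.14 ± 0.26, edgeR adjusted p = 4.56e-07).

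Wnt pathway genes outside the set were counted in 6 lists, with values for those that changed by at least 1 on the log2 scale. Each count stands against the share of all tested genes called in the same comparison, which was 38.5% for BMP2+MEKi against controls, 37.3% against MEKi, 16.5% for MEKi, 13.2% for rosiglitazone and 61.0% between the lines. Of 3 tested secreted antagonist genes outside it, Draxin and Trabd2b rose and Apcdd1 fell with BMP2+MEKi against controls. Draxin held 299 counts in BMP2+MEKi cells and 3 in controls, a ratio of 99.98 (95% counting interval 33.9 to 488), and 9 in MEKi cells, a ratio of 34.9 (18.1 to 77.0), with fitted log2 values against MEKi of 4.57 to 6.08 without 1 or the other MEKi library. Trabd2b, a protease that inactivates Wnt ligands, changed by 1.77 ± 0.14 and Apcdd1 by -1.62 ± 0.09 (edgeR adjusted p = 1.13e-06 and 7.3e-12). In MTΔECad controls Apcdd1 (1.09 ± 0.08) and Trabd2b (1.38 ± 0.14) were higher than in Py2T-LT controls (edgeR adjusted p = 3.66e-10 and 4.87e-06).

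Of 10 tested genes for other surface and secretion factors, 2 rose and 2 fell with BMP2+MEKi against controls, 5 rose and 1 fell against MEKi, 3 fell with MEKi, and 1 fell with rosiglitazone. Of all tested genes 38.5%, 37.3%, 16.5% and 13.2% were called in these 4 comparisons. The R-spondin receptor gene Lgr4 rose to 544 ± 23.0 CPM in BMP2+MEKi cells, against 229 ± 25.4 CPM in controls (1.25 ± 0.09), and Rnf43, a ligase that removes Frizzled receptors, to 10.96 ± 0.448 CPM against 1.33 ± 0.118 CPM (3.03 ± 0.23, edgeR adjusted p = 7.29e-10 or less for both). Lgr6, another R-spondin receptor gene, changed by -1.64 ± 0.12 with MEKi (edgeR adjusted p = 4.05e-09) and was higher in BMP2+MEKi cells than in MEKi cells by 1.42 ± 0.12 (edgeR adjusted p = 5.8e-09). Against MEKi, Lgr4 rose by 1.13 ± 0.09 and Rnf43 by 2.67 ± 0.22 (edgeR adjusted p = 1.06e-09 and 2.39e-09). The glypican gene Gpc4 held 0 counts in BMP2+MEKi cells, 9 in MEKi cells and 17 in controls, at least 2.82-fold lower than in controls and at least 1.43-fold lower than in MEKi cells, and the call against MEKi was lost without MEKi replicate 2 (edgeR adjusted p = 0.0954). Between the lines 4 were higher and 4 lower in MTΔECad controls, where 61.0% of all genes were called. Gpc4 had 2037 counts in MTΔECad controls and 17 in Py2T-LT controls (6.97 ± 0.19), Lgr6 had 16 and 1846 (-6.74 ± 0.21, with -7.33 to -6.36 without 1 or the other MTΔECad control; edgeR adjusted p = 3.88e-17 and 9.78e-17), and Rnf43 had 7 and 43, a ratio of 0.173 (95% counting interval 0.0656 to 0.388).

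Of 11 tested other genes commonly listed as β-catenin targets, 5 rose and 3 fell with BMP2+MEKi against controls and 5 rose and 1 fell against MEKi, where 38.5% and 37.3% of all genes were called. Bambi, Jag1, Tnfrsf19 and Tbx3 rose in both, by 1.74 ± 0.21, 1.22 ± 0.10, 1.20 ± 0.28 and 1.97 ± 0.41 against controls (edgeR adjusted p = 0.00817 or less) and by 1.82 ± 0.21, 1.38 ± 0.10, 1.51 ± 0.28 and 2.18 ± 0.42 against MEKi (edgeR adjusted p = 0.00567 or less). Bambi and Tbx3 are known as BMP targets as well. The Tbx3 calls were lost without either BMP2+MEKi library (edgeR adjusted p of 0.056 to 0.0702) and, against MEKi, without either MEKi library (0.0735 and 0.107), and its value against controls ran from 1.35 to 3.07 without 1 or the other control. Tnfrsf19 ran from 0.75 to 1.85 in the same way. Ccn4 rose by 1.34 ± 0.08 against MEKi (edgeR adjusted p = 3.86e-11). With MEKi 2 fell, and 3 rose and 1 fell with rosiglitazone, where 16.5% and 13.2% of all genes were called. Nrcam, with 31 counts with rosiglitazone and 8 in controls, a ratio of 3.95 (95% counting interval 1.77 to 9.94), lost its call without any 1 of the 4 libraries (edgeR adjusted p of 0.114 to 0.190).

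Between the lines 2 of these 11 targets were higher and 7 lower in MTΔECad controls, where 29.3% and 31.7% of all genes were. Ccnd1, the gene of cyclin D1, had 605 ± 14.2 CPM in MTΔECad controls and 1642 ± 149 CPM in Py2T-LT controls (-1.44 ± 0.08), Jag1 was lower by -1.33 ± 0.11 and Twist1 higher by 1.28 ± 0.10 (edgeR adjusted p = 2.5e-09 or less). Bambi had 3 counts in MTΔECad controls and 132 in Py2T-LT controls, a ratio of 0.0241 (95% counting interval 0.00492 to 0.0721), and Tnfrsf19 had 5 and 84, a ratio of 0.0632 (0.02001 to 0.154). The fitted Bambi value ran from -9.04 to -4.24 without 1 or the other MTΔECad control, and that of Tnfrsf19 from -5.08 without MTΔECad control replicate 2 to -3.28 without Py2T-LT control replicate 2. Tbx3 had 0 and 94 counts, at least 14.7-fold lower in MTΔECad controls. Its call was lost in the fit of the compared groups only (edgeR adjusted p = 0.142).

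Of 15 genes of the destruction complex and its cytoplasmic partners, 2 fell with MEKi, 3 rose and 1 fell with BMP2+MEKi against controls, 4 rose and 1 fell against MEKi, 1 rose with rosiglitazone, and 3 were higher and 4 lower in MTΔECad controls. Of all tested genes 16.5%, 38.5%, 37.3%, 13.2% and 61.0% were called in these comparisons, in the same order. Apc2 was the gene of this list that changed by 1 or more in any comparison, with 0 counts in MTΔECad controls and 350 in Py2T-LT controls, at least 54.9-fold lower. Of 12 further nuclear factor genes, 2 rose with MEKi, and 2 rose and 1 fell with BMP2+MEKi against controls. For BMP2+MEKi against MEKi 0 of the 12 were called. With rosiglitazone 1 fell, and 2 were higher and 3 lower in MTΔECad controls. The shares of all genes called were 16.5%, 38.5%, 37.3%, 13.2% and 61.0% in the same order. Pygo1 had 17 counts in BMP2+MEKi cells, 17 in MEKi cells and 1 in controls, ratios of 17.1 (95% counting interval 2.67 to 713) and 16.2 (2.55 to 679), and its calls were lost without control replicate 1 (edgeR adjusted p = 0.0651 for BMP2+MEKi and 0.122 for MEKi) or without replicate 2 of the treated group (0.0955 for BMP2+MEKi and 0.377 for MEKi). In MTΔECad controls Pygo1 had 76 counts, a ratio of 80.7 (14.1 to 3230, with fitted log2 values of 5.16 to 8.31 without 1 or the other Py2T-LT control), Tle1 was lower by -2.002 ± 0.10 and Bcl9 by -1.08 ± 0.27 (edgeR adjusted p = 3.63e-13 and 0.00447), the last of which was lost without MTΔECad control replicate 2 (0.0509) and was -0.49 without Py2T-LT control replicate 2.

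Of 8 tested planar polarity genes, 1 rose with MEKi, 3 rose and 2 fell with BMP2+MEKi against controls, 2 rose and 2 fell against MEKi, 1 rose with rosiglitazone, and 6 were lower in MTΔECad controls. The shares of all tested genes called in the same order were 16.5%, 38.5%, 37.3%, 13.2% and 61.0%. Celsr1 rose by 1.501 ± 0.19 with BMP2+MEKi against controls and by 1.78 ± 0.20 against MEKi (edgeR adjusted p = 4.28e-05 and 1.17e-05). It held 1 count in MTΔECad controls and 608 in Py2T-LT controls, a ratio of 0.00175 (95% counting interval 4.42e-05 to 0.00977) and fitted log2 values of -11.22 to -8.07 without 1 or the other MTΔECad control. Celsr2 held 5 and 41, a ratio of 0.130 (0.0400 to 0.328), with fitted values of -3.45 to -1.99 without 1 or the other Py2T-LT control.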

How the data were processed

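RNA was sequenced from 10 libraries, 2 for each of 5 groups, and grouped by the treatment and cell type in the labels. The values are raw counts per gene as deposited by the authors. Per the submitters' processing notes reads were aligned with STAR to mm10, and the counter, the annotation, whether strand was used and the release of STAR were not stated in the sources used here. Per the labels' protocols the RNA was described both as poly-A and as prepared with a stranded total RNA kit. Of 18103 gene identifiers, 18060 were matched to symbols, 18057 of them in RefSeq for GRCm38.p6, and the 43 unmatched held 0.763% of the counts.

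Genes were tested with edgeR 4.0.16 in R 4.3.3 (limma 3.58.1) on all 10 libraries, with low-count filtering by group, TMM scaling of library sizes, 5 group means and 5 residual degrees of freedom, and Benjamini-Hochberg adjustment over 13149 genes. The SE is the log2 fold change over the root of the F statistic. CPM use the scaled library sizes, and CPM per kb the GENCODE exon length of each gene. In groups with 1 to 9 counts the ratio of counts is given with an exact conditional 95% interval, and a group at 0 is set to the floor of 3 counts per library. Intervals and floors cover counting error only. The test was also run on simulated counts for MEKi against controls over 13149 genes. It recovered 84% of genes changed by 1 on the log2 scale and 98% of those changed by 2, and called 0.127% of unchanged genes. The counts were drawn from the fitted model itself with 200 genes changed, so these rates hold for data that follow that model. Replicates of a group differed by more than sampling noise (chi-square per gene 5.50 to 17.2), and whether the labels' replicate numbers mark a shared experiment is not stated.

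The member genes and the other gene lists were chosen with earlier results of these data known. Wnt4, Wnt10a and Wnt10b were named in every comparison, other members and list genes where the adjusted p was under 0.05 with a log2 fold change of at least 1, and further members by counts or values. Alternatives were RLE scaling, library totals, no count filter, a replicate block, DESeq2 1.42.0, a fit of the compared groups only, and leaving out each library. No protein sequences were used.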

Additional observations from a re-analysis of the deposited data

How the results depend on the processing

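The count of the 30 genes called stayed within 1.5 times its value in each comparison under every alternative run, and no called gene changed sign. Of 94 calls among these 30, 71 were kept under every alternative, 23 were lost under at least 1, and 11 further calls were gained under at least 1. Leaving out 1 library gave 9 to 13 calls for MEKi against controls, 21 to 25 for BMP2+MEKi against controls, 20 to 22 for BMP2+MEKi against MEKi, 8 to 10 for rosiglitazone and 19 to 23 between the lines. Same-numbered libraries did not deviate together (correlations of -0.106 to 0.100), so the numbers were not taken as pairs. With the replicate block the counts in the same order were 13, 23, 24, 12 and 25, and with DESeq2 12, 23, 20, 12 and 23. The block added the calls of Wnt5b with MEKi (edgeR adjusted p = 0.0317), Fzd3 for BMP2+MEKi against MEKi (0.0467) and Fzd8 between the lines (0.0495). Library totals moved the median of all genes between the lines to -0.16, against -0.03 with scaled sizes, and there the calls of Fzd5 (edgeR adjusted p = 0.116) and Lrp6 (0.441) were lost. Axin2 with rosiglitazone passed with library totals (edgeR adjusted p = 0.0499), with no count filter (0.0376) and in the fit of the compared groups (0.0397). Rspo1, outside the 30, passed for BMP2+MEKi against controls with no count filter (edgeR adjusted p = 0.0117). Over all genes, rosiglitazone gave 1112 calls without MTΔECad control replicate 1, against 1737 with all libraries. Depth limits the fold of genes with few counts in a group (Wif1, Fzd9, Wnt11, Rspo3 and Dkk3), as their counting intervals show, and the causes of the changed calls were not tested.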
